A study of Homo sapiens with 12 samples.

Results

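The expression changes that followed stable KDM3A knockdown in Rh30 cells were described across 17811 of the 65975 gene identifiers in the table, those that averaged 1 FPKM or more over the 6 Rh30 libraries. FPKM is the number of fragments per length of transcript, scaled to the fragments mapped in the library, so its values can be compared between genes. Rh30 is an established line of fusion-positive rhabdomyosarcoma (FP-RMS), and RD is an established fusion-negative line (FN-RMS). The 3 Rh30 Scramble libraries came from cells with a non-targeting shRNA and the 3 Rh30 KDM3A-sh2 libraries from cells with an shRNA to KDM3A. All cells were infected with lentivirus and selected with puromycin, and no uninfected Rh30 cells were among the 12 libraries of the study. The 6 RD libraries, 3 with each shRNA, were used for the last comparison only. Rh30 cells grew in RPMI and RD cells in DMEM, so the line and its medium cannot be told apart where the lines are compared. RNA-seq was done with 1 KDM3A shRNA, so an effect of losing KDM3A and an effect of this shRNA on other transcripts cannot be told apart. The labels do not state if replicates were cultured separately, so the p-values measure only the spread between libraries, which may be technical. The column names of the 3 Rh30 Scramble libraries all end in the same number, while those within each other group end in different numbers. What this ending stands for is not given, so the Rh30 Scramble libraries may share 1 culture.

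KDM3A encodes a JmjC-domain demethylase that removes methyl groups from lysine 9 of histone H3, a mark of silenced chromatin, and it is known as a hypoxia-inducible gene and as a coactivator. Rhabdomyosarcoma is a soft tissue cancer that resembles immature skeletal muscle and expresses the myogenic factors MyoD and myogenin without completing differentiation. FP-RMS cells carry a PAX3-FOXO1 or PAX7-FOXO1 fusion, a transcription factor that holds them in this state, and they disseminate more often than FN-RMS cells.

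The Rh30 libraries carried the markers of their line. 9 of 10 rhabdomyosarcoma markers had a mean of at least 1 FPKM, including MYOD1, MYOG and DES, and MYF5 was listed at 0 in both groups. The summed level of these markers was 3099 to 3478 FPKM with Scramble and 3458 to 3546 FPKM with KDM3A-sh2. The summed level of 8 epithelial markers lay between 11.7 and 13.9 FPKM and that of 7 endothelial markers between 7.11 and 9.17 FPKM over both groups, and 7 fibroblast markers summed to 23.9 to 30.7 FPKM with Scramble and 23.3 to 25.9 FPKM with KDM3A-sh2. The 8 blood cell markers summed to 82.4 to 86.5 FPKM with Scramble and 43.0 to 43.2 FPKM with KDM3A-sh2. 1 of the 8, LAPTM5, was above 1 FPKM, while PTPRC and CD3E averaged under 0.05 FPKM in each group and HBA1 was listed at 0. The sum over all genes was 1331935 to 1350414 FPKM with Scramble and 1339589 to 1379197 FPKM with KDM3A-sh2. Counts of reads were not used here, so absolute depth is unknown. In bulk RNA, fewer cells of a kind and less RNA per cell cannot be told apart. KDM3A itself was 27.8, 29.2 and 32.0 FPKM in the 3 Scramble libraries and 13.7, 13.2 and 15.4 FPKM in the 3 KDM3A-sh2 libraries, a log2 fold change of -1.02 (adjusted p = 0.000348).

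On log2(FPKM + 1), with limma and Benjamini-Hochberg adjustment over all 17811 genes, 2721 genes (15.3%) were higher and 2348 (13.2%) lower with KDM3A-sh2 at an adjusted p under 0.05. In 8164 of the 17811 genes (45.8%) the 3 Scramble and the 3 KDM3A-sh2 libraries did not overlap, so groups that stand apart are common among all tested genes. The median log2 fold change of all tested genes was 0.03. Among protein-coding genes alone, 17.5% were higher and 16.1% lower, and the list counts below are to be read beside these shares. The balance of rises and drops depended on the scaling: with every library scaled to the same sum, 2316 genes were higher and 2607 lower. Most changes were small, with 582 higher and 538 lower genes also passing a 1.5-fold change. Of the 17811 genes, 749 had a mean under 1 FPKM in one group and reached the filter through the other. The group under 1 FPKM was Scramble for 454 of them and KDM3A-sh2 for 295. Leaving out KDM3A-sh2 replicate 1 gave 1622 higher genes and leaving out KDM3A-sh2 replicate 2 gave 1760. Where values of 3 libraries follow each other without a group name, Scramble is given first and KDM3A-sh2 second. Log2 fold changes below are KDM3A-sh2 minus Scramble on this scale, and each is given with its standard error (SE) where a gene is described in full.

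The largest drops were in genes of the membrane, the integrin system, the troponin complex and stress signalling. NKAIN4, which encodes a small membrane protein that binds the sodium pump, lies on chromosome 20 (63240784 to 63272694, GRCh38, from GENCODE 29 as for all genes here). It was expressed at 43.6, 42.5 and 42.5 FPKM with Scramble and at 6.21, 4.53 and 5.24 FPKM with KDM3A-sh2, a log2 fold change of -2.80 (SE 0.10, adjusted p = 5.16e-05). The lowest values were those of the KDM3A-sh2 libraries, and the rule that chose these largest drops required groups without overlap. ITGA3, the alpha subunit of a laminin-binding integrin (chromosome 17, 50055968 to 50090481), was at 7.53, 11.2 and 9.22 FPKM against 1.11, 1.121 and 1.37 FPKM (log2 fold change -2.22, SE 0.15, adjusted p = 0.000217). TNNC1, the calcium-binding troponin C of slow and cardiac muscle (chromosome 3, 52451102 to 52454070), was at 43.5, 43.0 and 41.4 FPKM against 8.28, 9.73 and 10.1 FPKM (log2 fold change -2.08, SE 0.08, adjusted p = 5.42e-05). GADD45B, a stress-inducible adaptor of MAP kinase signalling (chromosome 19, 2476122 to 2478259), was at 20.8, 23.9 and 19.2 FPKM against 4.93, 4.68 and 4.01 FPKM (log2 fold change -2.01, SE 0.10, adjusted p = 0.000103). In ITGA3, TNNC1 and GADD45B, too, the KDM3A-sh2 libraries were the lower ones. OSTM1, a partner of the lysosomal chloride channel CLCN7, followed with 54.6, 60.3 and 62.1 FPKM and 14.4, 14.5 and 14.7 FPKM (log2 fold change -1.95). NPPB, which encodes the natriuretic peptide BNP, was at 12.8, 16.9 and 13.97 FPKM with Scramble and 2.82, 4.01 and 3.31 FPKM with KDM3A-sh2.

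The largest rises were in a dynein subunit, a matrix inhibitor of calcification, and hormone and transmitter genes. DYNLRB1, a roadblock-type light chain of cytoplasmic dynein (chromosome 20, 34516409 to 34540958), was at 83.6, 86.6 and 84.8 FPKM with Scramble and at 334, 321 and 331 FPKM with KDM3A-sh2 (1.94 on the log2 scale, SE 0.03, adjusted p = 3.72e-06). DRD2, a dopamine receptor (chromosome 11, 113409615 to 113475691), was at 3.98, 5.47 and 4.03 FPKM against 17.2, 16.97 and 18.0 FPKM (log2 fold change 1.75, SE 0.11, adjusted p = 0.0002). MGP, a matrix protein that inhibits calcification and binds bone morphogenetic proteins (chromosome 12, 14881181 to 14885926), was at 14.03, 12.4 and 14.4 FPKM against 48.7, 47.7 and 46.8 FPKM (log2 fold change 1.74, SE 0.06, adjusted p = 5.42e-05). Groups without overlap were part of the rule that chose these genes. DIO2, the deiodinase that activates thyroid hormone within cells, was at 25.4, 33.1 and 34.8 FPKM against 92.3, 109 and 97.0 FPKM (log2 fold change 1.66). The other genes among the 10 largest rises were UGT3A1 (1.58), IL21R (1.45), RP11-332K15.1 (1.44), SNX15 (1.42), MACROD1 (1.38) and CD7 (1.37), all log2 fold changes with adjusted p at or below 0.000952. RP11-332K15.1 is an antisense RNA. The library preparation was directional, but how strand was used in the quantification is not given in the sources used here, so its level is uncertain. HSD17B10, a mitochondrial dehydrogenase and a subunit of mitochondrial RNase P, rose from 91.5 ± 7.86 to 216 ± 7.27 FPKM (SD, n = 3).

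**Figure D1:**
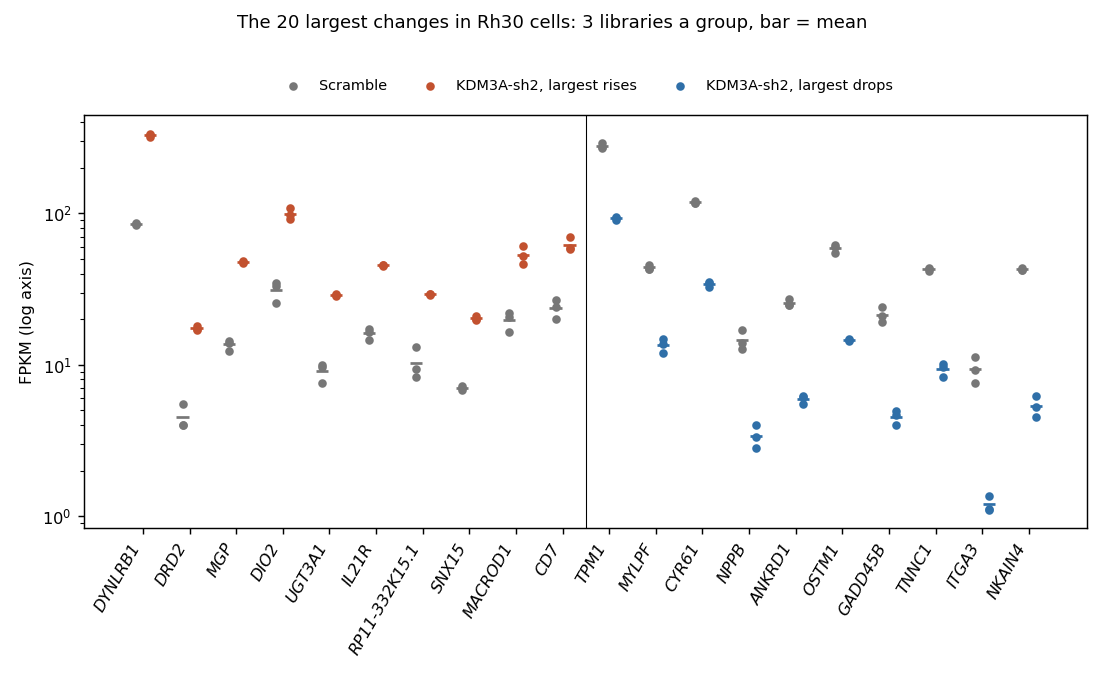
The 10 largest rises (left) and the 10 largest drops (right) in Rh30 cells, with FPKM on a log axis, 1 point per library and a bar at the mean of each group of 3. In each gene all 3 KDM3A-sh2 libraries lie on one side of all 3 Scramble libraries, as the choice of genes required, from those averaging 5 FPKM or more.

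Most targets of the mechanically regulated coactivator YAP that passed the test were lower. YAP and its paralogue TAZ are coactivators that bind TEAD transcription factors when cells are spread and under tension, and CYR61 (CCN1), CTGF (CCN2) and ANKRD1 are their best known targets. Of 22 tested YAP/TEAD targets, 12 were lower and 1 was higher, with a median of -0.30 against 0.03 over all genes. ANKRD1 was at 24.6, 24.7 and 27.4 FPKM with Scramble and at 6.13, 6.26 and 5.48 FPKM with KDM3A-sh2 (-1.93 on the log2 scale, SE 0.07, adjusted p = 5.42e-05). CYR61 was at 120.0, 118 and 117 FPKM against 32.8, 34.7 and 34.9 FPKM (log2 fold change -1.76, SE 0.04, adjusted p = 1.39e-05). CTGF was at 23.0, 21.5 and 22.8 FPKM against 7.72, 8.02 and 7.59 FPKM (log2 fold change -1.42, SE 0.06, adjusted p = 5.42e-05). In all 3 genes the KDM3A-sh2 libraries were the lower ones. AXL, a receptor tyrosine kinase that is also a YAP target, had a log2 fold change of -1.55. PTPN14, a phosphatase that restrains YAP and is itself induced by it, was the 1 member that rose, from 21.7 ± 1.38 to 31.0 ± 1.02 FPKM (SD, n = 3). TEAD4, a DNA-binding partner of YAP, fell from 48.9 ± 3.57 to 33.8 ± 0.331 FPKM (SD, n = 3).

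The TEAD binding word GGAATG or its reverse complement is shown for 2 of the genes with the largest drops on the list. In RefSeq windows of 250 bases before to 50 after each gene's start (GRCh38.p14), 7 of 18 matched YAP/TEAD targets held the word on either strand, against 14.05% of all 27305 windows. The list was chosen as TEAD targets, so its share is no independent evidence. Among the 7 were PTPN14, which rose, and FOXF2 and NUAK2, which did not pass the test. CYR61 and AXL, which fell more than CTGF, were not among them. The CTGF window holds it 3 times, 2 of them in the stretch printed here, and capitals mark 1 match. The coordinates are chr6:131951451-131951496, minus strand, for CTGF and chr10:90921190-90921235, minus strand, for ANKRD1.
CTGF: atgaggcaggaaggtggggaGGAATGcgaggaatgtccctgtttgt
ANKRD1: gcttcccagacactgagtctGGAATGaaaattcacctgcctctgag
No binding was measured, and a match says only that these letters are present.

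Actin, its regulators and the proteins of focal adhesions form a second group with mostly lower members. Many of these genes are driven by serum response factor (SRF), which binds a CArG box, CC followed by 6 bases of A or T and GG, when actin polymerisation releases its coactivators MRTF-A and MRTF-B. Of 46 tested members, 26 were lower and 3 were higher, with a median of -0.22. The higher count was 5 on leaving out Scramble replicate 2 and 1 on leaving out KDM3A-sh2 replicate 2, and the lower count stayed at 18 or more without any single library. TPM1, a tropomyosin that lines actin filaments, was at 271, 275 and 293 FPKM with Scramble and at 92.6, 90.3 and 94.5 FPKM with KDM3A-sh2 (-1.59 on the log2 scale, SE 0.04, adjusted p = 2.05e-05). TAGLN, the actin-bundling protein transgelin, was at 15.8, 18.6 and 16.5 FPKM against 5.34, 5.76 and 5.205 FPKM (log2 fold change -1.48, SE 0.08, adjusted p = 0.000123). FLNC, the muscle filamin, which crosslinks actin and anchors it to integrins, had a log2 fold change of -0.86. FHL2, a LIM-domain cofactor of SRF, rose from 33.3 ± 0.588 to 42.4 ± 1.13 FPKM (SD, n = 3). SRF itself was at 28.7 ± 1.89 and 30.3 ± 0.803 FPKM (SD, n = 3), a log2 fold change of 0.08 that did not pass the test (adjusted p = 0.349).

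A CArG box stood in 8 of 44 matched promoter windows of this list and in 1.29% of all 27305 windows. The list was chosen to hold SRF-type genes, so its share is no independent evidence. Boxes of genes that fell and of FHL2, which rose, are printed side by side because the same kind of box stood before genes that moved in opposite directions. They lie at chr17:81512864-81512913 (minus strand) for ACTG1, chr19:1026499-1026548 (plus strand) for CNN2, chrX:154374699-154374748 (minus strand) for FLNA and chr2:105438585-105438634 (minus strand) for FHL2, and capitals mark the box.
ACTG1: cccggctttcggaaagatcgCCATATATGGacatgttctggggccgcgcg
CNN2: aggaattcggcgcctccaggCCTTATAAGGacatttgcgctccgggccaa
FLNA: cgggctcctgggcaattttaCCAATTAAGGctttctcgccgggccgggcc
FHL2: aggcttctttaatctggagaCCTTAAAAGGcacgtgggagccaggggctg
The log2 fold changes of the first 3 were -0.38, -0.25 and -0.27, and that of FHL2 was 0.34. ACTG1 encodes cytoplasmic gamma-actin, CNN2 a calponin and FLNA the widely expressed filamin.

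The receptors by which cells hold matrix and neighbours also moved mostly downward. Of 16 tested integrin subunits, 8 were lower and 0 were higher (1 without KDM3A-sh2 replicate 1). Apart from ITGA3, ITGB3 of the vitronectin receptor was at 10.5, 10.6 and 10.5 FPKM with Scramble and at 4.52, 4.16 and 4.50 FPKM with KDM3A-sh2, and ITGA6, a laminin receptor subunit, at 34.6, 32.0 and 36.6 FPKM against 19.4, 21.5 and 21.6 FPKM. Their log2 fold changes were -1.10 and -0.70. Of 21 tested cadherins, Ig-type adhesion molecules and CD44, 13 were lower and 2 were higher, with a median of -0.25. CDH2, N-cadherin, fell from 10.7 ± 1.11 to 5.78 ± 0.549 FPKM, and PVRL2 (nectin-2) fell from 94.1 ± 5.53 to 56.9 ± 2.24 FPKM (SD, n = 3 each). PVRL1 (nectin-1), a relative of PVRL2 in the same junctions, rose from 67.7 ± 4.99 to 141 ± 5.14 FPKM (SD, n = 3), a log2 fold change of 1.05 (adjusted p = 0.000145).

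Matrix genes were more often lower than higher, with rises in single members. Of 37 tested matrix glycoproteins and proteoglycans, 20 were lower and 5 were higher, with a median of -0.32. Among those that fell, THBS1, an activator of latent TGF-beta, was at 80.98, 72.1 and 73.0 FPKM with Scramble and at 33.6, 35.3 and 33.6 FPKM with KDM3A-sh2. VCAN, the large proteoglycan versican, was at 61.5, 62.4 and 61.5 FPKM against 28.5, 28.7 and 28.4 FPKM. LAMA5, a laminin alpha chain of basement membranes, had a log2 fold change of -1.10, while LAMA2, the alpha chain of the muscle laminin, rose from 8.64 ± 0.435 to 14.3 ± 1.201 FPKM (SD, n = 3). Of 34 tested collagens and modifying enzymes, 13 were lower and 6 were higher. Fibrillar collagens moved in both directions. COL1A1 and COL2A1 fell, with log2 fold changes of -0.97 and -1.03, and COL3A1 and COL5A2 rose by 0.76 and 0.35 on the log2 scale. LOXL3, a lysyl oxidase that crosslinks collagen, had a log2 fold change of -0.75. In the plasminogen and matrix protease list, 15 of 31 tested genes were lower and 4 were higher. The plasminogen activators PLAU and PLAT had log2 fold changes of -0.90 and -0.82, and SERPINE2, a secreted inhibitor of both, rose from 113 ± 3.40 to 197 ± 1.95 FPKM (SD, n = 3).

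**Figure D2:**
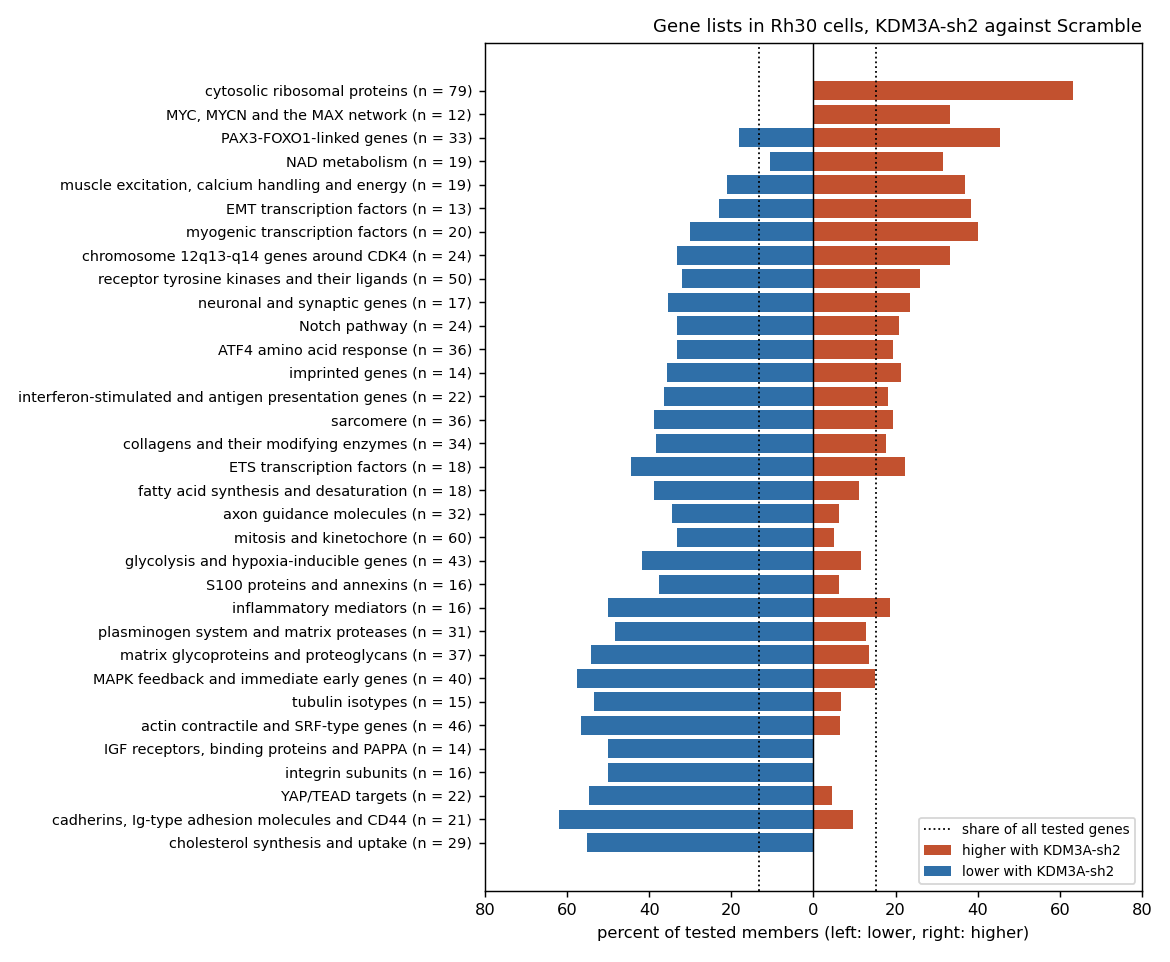
Gene lists in which at least 30% of 12 or more tested members were higher (right, red) or lower (left, blue) with KDM3A-sh2 in Rh30 cells, in percent of tested members, with dotted lines at the 15.3% and 13.2% of all tested genes. Cholesterol, adhesion, YAP/TEAD, integrin, actin and MAPK genes lie on the lower side, and cytosolic ribosomal proteins reach furthest to the higher side. For protein-coding genes alone the shares, not drawn, were 17.5% and 16.1%.

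Transcripts that MAP kinase signalling induces were mostly lower where they passed the test. ERK signalling induces its own brakes, the DUSP phosphatases and SPRY proteins, together with AP-1 subunits and ETS factors of the PEA3 family. Of 40 tested MAPK feedback and immediate early genes, 23 were lower and 6 were higher, with a median of -0.26. DUSP6, the phosphatase of ERK, was at 66.0, 68.8 and 67.6 FPKM with Scramble and at 37.8, 36.9 and 32.2 FPKM with KDM3A-sh2 (-0.91 on the log2 scale, SE 0.07, adjusted p = 0.000288). SPRY4, an inhibitor upstream of RAS, was at 25.6, 26.01 and 23.7 FPKM against 13.4, 12.4 and 14.3 FPKM (log2 fold change -0.86). FOSL1, an AP-1 subunit, was at 11.9, 10.7 and 10.1 FPKM against 3.99, 3.46 and 4.45 FPKM (log2 fold change -1.26). The KDM3A-sh2 libraries of these 3 genes were the lower ones. DUSP2, a phosphatase of the same family, was named after its values were seen and rose, from 1.53, 2.26 and 1.41 FPKM to 7.44, 6.29 and 7.34 FPKM. JUN also rose, from 172 ± 11.3 to 217 ± 2.98 FPKM, and so did KLF4, from 5.74 ± 0.207 to 8.81 ± 0.857 FPKM (SD, n = 3 each). Among 18 tested ETS factors, 8 were lower and 4 were higher, and the higher count was 1 on leaving out Scramble replicate 1 or KDM3A-sh2 replicate 1 or 3 and 2 on leaving out Scramble replicate 2 or KDM3A-sh2 replicate 2. ETV4 fell by 1.03 and ELK4, a ternary complex partner of SRF, fell by 0.49 on the log2 scale, while ETS2 rose by 0.29.

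Upstream of this pathway the receptors and ligands were split. Of 50 tested receptor tyrosine kinases and ligands, 16 were lower and 13 were higher. The ligands HBEGF and FGF8 fell, from 10.7 ± 0.506 to 5.33 ± 0.246 FPKM and from 173 ± 11.2 to 96.7 ± 7.00 FPKM (SD, n = 3 each). The ligands NRG1 and EFNB2 rose, from 5.91 ± 0.306 to 12.2 ± 0.155 FPKM and from 9.10 ± 0.273 to 19.8 ± 0.551 FPKM, and so did the ephrin receptor EPHB2, from 24.6 ± 1.84 to 45.3 ± 1.72 FPKM (SD, n = 3 each). In the insulin-like growth factor system, 7 of 14 tested genes were lower and 0 were higher (1 without Scramble replicate 3). IGF2, the growth factor that rhabdomyosarcomas commonly overexpress, was at 2181, 2411 and 2098 FPKM with Scramble and at 1201, 1194 and 1279 FPKM with KDM3A-sh2 (-0.86 on the log2 scale, SE 0.06, adjusted p = 0.000217). IGF2R, which clears IGF2, and IGF2BP2, which binds its mRNA, fell by 0.36 and 0.62 on the log2 scale.

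Genes of TGF-beta, activin and BMP signalling moved both ways. The list as a whole had 9 higher and 13 lower of 46 tested genes, the latter 8 on leaving out KDM3A-sh2 replicate 1. MSTN (myostatin), the ligand that limits muscle growth, was at 236, 229.7 and 259 FPKM with Scramble and at 124, 124 and 119 FPKM with KDM3A-sh2, and TGFB2 was at 27.1, 30.2 and 28.4 FPKM against 19.4, 14.7 and 16.5 FPKM. On the other side, BMP7 was at 23.4, 26.7 and 24.4 FPKM against 44.1, 48.9 and 49.5 FPKM, and ID3, an inhibitor of basic helix-loop-helix factors that BMP signals induce, was at 352, 353 and 308 FPKM against 614, 622 and 597 FPKM. Their log2 fold changes were -0.97, -0.74, 0.91 and 0.85, in that order. SMAD9, a BMP-branch SMAD, rose by 0.87 on the log2 scale.

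Among the metabolic lists, cholesterol synthesis and uptake had the highest share of lower genes. Cholesterol is built from acetyl-CoA by enzymes that the SREBP2 transcription factor controls as a group. Of 29 tested genes of cholesterol synthesis and uptake, 16 were lower and 0 were higher (1 on leaving out Scramble replicate 2 or KDM3A-sh2 replicate 1), with a median of -0.30. HMGCS1, an early enzyme of the mevalonate pathway, was at 105, 102 and 109 FPKM with Scramble and at 70.9, 68.6 and 67.9 FPKM with KDM3A-sh2 (-0.60 on the log2 scale, SE 0.04, adjusted p = 0.000246). FDFT1 and SQLE, the first committed steps toward sterols, had log2 fold changes of -0.71 and -0.65. Of 18 tested fatty acid enzymes, 7 were lower and 2 were higher (1 on leaving out Scramble replicate 1 or KDM3A-sh2 replicate 1 or 2). SCD, the stearoyl-CoA desaturase, fell from 303 ± 8.97 to 183 ± 3.13 FPKM, and ELOVL6, a fatty acid elongase, fell from 67.6 ± 2.46 to 42.6 ± 0.731 FPKM (SD, n = 3 each).

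Hypoxia-inducible and glycolytic genes, a group that includes KDM3A itself, had 18 lower and 5 higher members of 43 tested, with a median of -0.22. The higher count was 3 on leaving out Scramble replicate 1 or 3 or KDM3A-sh2 replicate 2 and 2 on leaving out KDM3A-sh2 replicate 1. EGLN3, an oxygen-sensing prolyl hydroxylase that HIF induces, was at 62.0, 62.2 and 60.6 FPKM with Scramble and at 23.3, 25.2 and 24.4 FPKM with KDM3A-sh2 (-1.31 on the log2 scale, SE 0.04, adjusted p = 5e-05). BHLHE40, a hypoxia-inducible repressor, was at 15.6, 15.4 and 15.9 FPKM against 5.80, 4.61 and 6.40 FPKM (log2 fold change -1.34). STC2, a secreted glycoprotein, was at 299, 307 and 256 FPKM against 174, 165 and 183 FPKM (log2 fold change -0.72). These 3 genes were lower with KDM3A-sh2, whereas EPAS1, which encodes HIF-2 alpha, rose from 18.6 ± 1.33 to 24.5 ± 1.76 FPKM (SD, n = 3).

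The contractile apparatus was divided. Muscle fibres slide actin over myosin filaments under the control of the troponin complex, and the giant proteins titin and nebulin set the length of the filaments. Of 36 tested sarcomere genes, 14 were lower and 7 were higher, with a median of -0.12. Of 8 tested troponin subunits, a subset chosen after the values were seen, 7 were lower and none was higher, with log2 fold changes from -2.08 to -0.24. The E-box CAGCTG, which myogenic factors can bind, stood in 14 of 37 matched promoter windows of the sarcomere list and in 17.7% of all windows. The list was chosen to hold muscle genes, so its share is no independent evidence. Windows were counted for listed genes whether tested or not, and were not split by direction. TNNT2, cardiac troponin T, was at 566, 592 and 568 FPKM with Scramble and at 287, 288 and 288 FPKM with KDM3A-sh2 (-0.997 on the log2 scale, SE 0.03, adjusted p = 3.6e-05). MYLPF, a fast myosin light chain, was at 43.1, 45.5 and 43.1 FPKM against 12.0, 14.9 and 13.7 FPKM (log2 fold change -1.63). The long structural genes moved the other way. TTN (titin) was at 10.8, 10.2 and 12.5 FPKM against 21.8, 22.0 and 22.4 FPKM, and NEB (nebulin) was at 55.6, 58.4 and 61.6 FPKM against 104, 107 and 107 FPKM. Their log2 fold changes were 0.93 and 0.84. CSRP3, a Z-disc LIM protein, rose by 1.09 and KLHL41, a nemaline myopathy gene that stabilises nebulin, by 0.56 on the log2 scale.

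The regulators of muscle identity did not follow the troponins. Of 20 tested myogenic transcription factors, 8 were higher and 6 were lower. The higher count was 5 on leaving out KDM3A-sh2 replicate 1 or 2 or 3, and the lower count was 3 on leaving out Scramble replicate 1. MYOG (myogenin), which starts terminal differentiation, was at 700.0, 725 and 647 FPKM with Scramble and at 1017, 1028 and 1006 FPKM with KDM3A-sh2 (0.56 on the log2 scale, SE 0.05, adjusted p = 0.000401). MEF2C, its partner at muscle promoters, was at 56.0, 57.1 and 54.7 FPKM against 106, 92.1 and 97.1 FPKM (log2 fold change 0.80). EYA2 and EYA4, transcriptional cofactors in muscle progenitors, rose by 0.63 and 0.47, and SIX4 fell by 0.39. At the neuromuscular junction, 5 of 18 tested genes were lower and 2 were higher, the latter 1 on leaving out Scramble replicate 3 or KDM3A-sh2 replicate 2 or 3. The acetylcholine receptor subunits CHRNA1 and CHRND fell, from 456 ± 12.1 to 292 ± 1.88 FPKM and from 99.4 ± 3.40 to 61.3 ± 0.696 FPKM, and the dystroglycan gene DAG1 fell from 87.4 ± 4.43 to 58.3 ± 0.422 FPKM (SD, n = 3 each). SGCA, alpha-sarcoglycan of the complex that dystroglycan anchors, rose from 74.2 ± 2.01 to 113 ± 4.47 FPKM (SD, n = 3). Among genes of excitation, calcium handling and energy, 7 were higher and 4 were lower of 19. MB (myoglobin) was at 4.04, 4.23 and 4.55 FPKM against 10.7, 8.84 and 8.92 FPKM, and CKB, a creatine kinase, fell from 312 ± 2.78 to 248 ± 9.96 FPKM (SD, n = 3).

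Genes linked to the PAX3-FOXO1 fusion in the literature leaned upward. Of 33 tested, 15 were higher and 6 were lower, with a median of 0.19. ASS1, the argininosuccinate synthase, was at 1217, 1289.7 and 1185 FPKM with Scramble and at 1871, 1891 and 1801 FPKM with KDM3A-sh2 (0.59 on the log2 scale, SE 0.04, adjusted p = 0.000229). FGFR2 was at 28.8, 28.01 and 30.01 FPKM against 43.8, 44.9 and 43.1 FPKM (log2 fold change 0.59), and POU4F1, a neural transcription factor, was at 92.2, 89.7 and 91.9 FPKM against 131, 127 and 129 FPKM (log2 fold change 0.50). The KDM3A-sh2 libraries of these 3 genes were the higher ones. IGF2 and RASSF4, a RAS-association protein that inhibits Hippo signalling in FP-RMS, went the other way, RASSF4 from 43.1 ± 1.49 to 23.9 ± 1.77 FPKM (SD, n = 3). MYCN was at 90.7 ± 2.03 and 90.2 ± 2.53 FPKM (SD, n = 3), and its log2 fold change of -0.01 was smaller than its SE of 0.04. The fusion transcript was not measured apart from PAX3 and FOXO1. PAX3 was at 54.2, 62.8 and 49.5 FPKM against 81.5, 71.3 and 77.6 FPKM (adjusted p = 0.0118). FOXO1 was at 57.1, 57.5 and 34.3 FPKM against 78.3, 61.5 and 85.0 FPKM (adjusted p = 0.0771), which did not pass the test.

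Rh30 cells carry an amplified segment of chromosome 12q13-q14 around CDK4. Of 24 tested genes of this segment, 8 were higher and 8 were lower, or 5 higher and 10 lower with every library scaled to the same sum, and the higher count was 5 on leaving out Scramble replicate 3 or KDM3A-sh2 replicate 1 or 3. TSPAN31 rose by 0.30 and AGAP2 fell by 0.57 on the log2 scale.

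**Figure D3:**
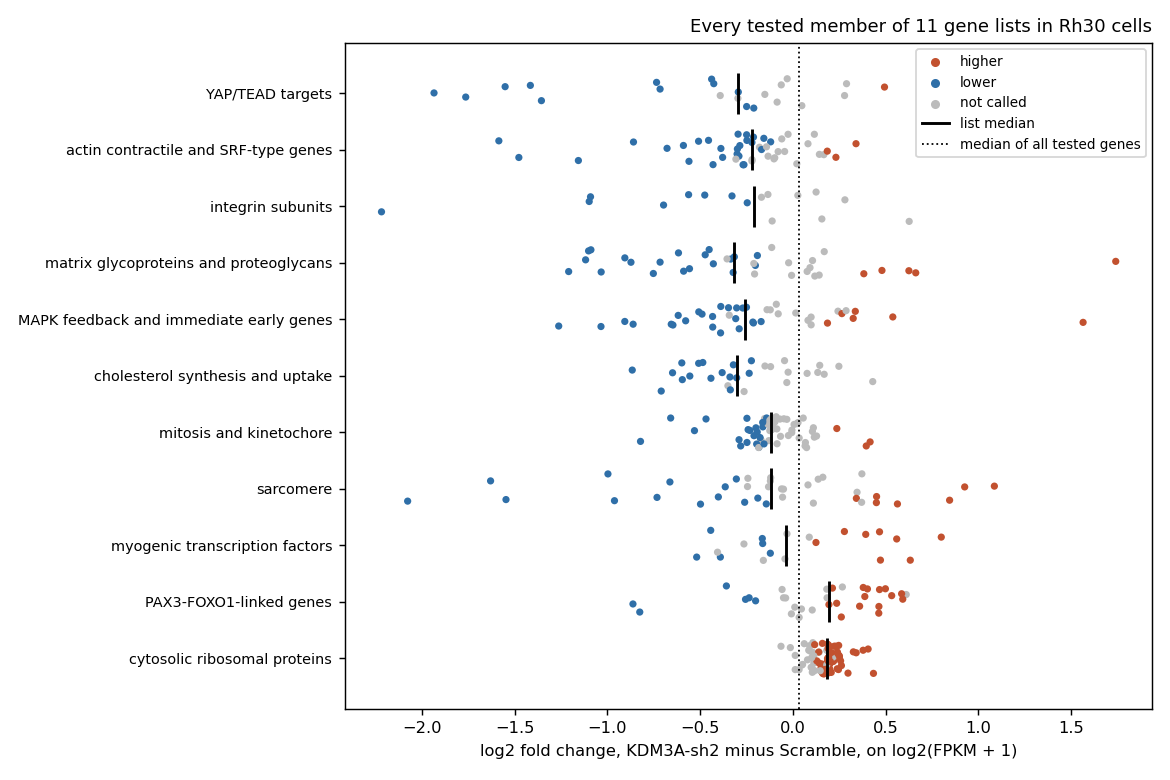
Each point is a tested gene of 11 lists, placed by its log2 fold change in Rh30 cells (KDM3A-sh2 minus Scramble, on log2(FPKM + 1)), red if higher, blue if lower and grey if not called, with the list median as a black bar and the median of all genes (0.03) as a dotted line. The YAP/TEAD, integrin, actin and sarcomere lists have long tails to the left, and the matrix list reaches from -1.21 to 1.74. Cytosolic ribosomal proteins sit close together on the right.

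Cytosolic ribosomal proteins showed small rises that many members shared, while initiation and elongation factors moved both ways. Of 79 tested cytosolic ribosomal proteins, 50 were higher and 0 were lower, with a median of 0.18. The higher count was 29 on leaving out Scramble replicate 1, 26 on leaving out KDM3A-sh2 replicate 1 and 31 on leaving out KDM3A-sh2 replicate 2, and it was 48 with every library scaled to the same sum and 40 with median-ratio scaling. RPLP0, of the ribosomal stalk, was at 731, 777 and 738 FPKM with Scramble and at 976, 1007 and 992 FPKM with KDM3A-sh2 (0.41 on the log2 scale, SE 0.03, adjusted p = 0.000427). The KDM3A-sh2 libraries were the higher ones, by a small amount. Several ribosomal protein genes have many processed pseudogenes, and how reads were shared among these copies is not given in the sources used here. Of the initiation and elongation factors, 10 were higher and 7 were lower of 43, with EIF3F rising by 0.33 and EIF4G2 falling by 0.41. These are 23.3% and 16.3%, near the 17.5% and 16.1% of protein-coding genes. Respiratory chain and ATP synthase subunits had 16 higher (20.5%) and 2 lower (2.56%) members of 78, with a median of 0.07. The lower count was 1 on leaving out Scramble replicate 1 or KDM3A-sh2 replicate 2 and 0 on leaving out Scramble replicate 2 or 3 or KDM3A-sh2 replicate 1 or 3. The higher count was 10 on leaving out Scramble replicate 1, 7 on leaving out KDM3A-sh2 replicate 1 and 8 on leaving out KDM3A-sh2 replicate 2, and NDUFA7 of complex I rose from 85.3 ± 5.65 to 119 ± 4.11 FPKM (SD, n = 3).

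The cell cycle lists held a marked drop of cyclin D1 and small changes of mitotic genes. CCND1 (cyclin D1), which drives entry into S phase, was at 135, 138 and 129.5 FPKM with Scramble and at 50.8, 56.2 and 55.4 FPKM with KDM3A-sh2 (-1.29 on the log2 scale, SE 0.05, adjusted p = 5.42e-05). The CDK inhibitor CDKN1A was at 97.9, 104 and 96.6 FPKM against 67.6, 68.9 and 66.3 FPKM (log2 fold change -0.55), so the activator and the inhibitor were both lower with KDM3A-sh2. Of 34 tested CDK inhibitors, D cyclins and p53 targets, 8 were lower and 8 were higher, the latter 5 on leaving out Scramble replicate 1 or KDM3A-sh2 replicate 2, 2 on leaving out KDM3A-sh2 replicate 1 and 4 on leaving out KDM3A-sh2 replicate 3. Of 55 replication and nucleotide synthesis genes, 6 were higher and 6 were lower (10.9% each), below the shares of all tested genes. RRM1, the large subunit of ribonucleotide reductase, fell from 207 ± 0.225 to 154 ± 7.03 FPKM, and GINS3, of the replicative helicase, rose from 31.7 ± 1.65 to 48.3 ± 1.89 FPKM (SD, n = 3 each). Of 60 tested mitosis and kinetochore genes, 20 were lower and 3 were higher, with a median of -0.12, and the lower count was 13 on leaving out Scramble replicate 1 and 11 on leaving out KDM3A-sh2 replicate 1 or 3. MAD2L1, a spindle checkpoint protein, was at 266, 245 and 281 FPKM against 149, 157 and 140.2 FPKM (log2 fold change -0.82), and KIF4A, a chromosome-associated kinesin, fell from 44.0 ± 1.65 to 27.5 ± 1.10 FPKM (SD, n = 3). Of 15 tubulin genes, 8 were lower and 1 was higher, the latter 0 on leaving out Scramble replicate 1 or 2 or 3 or KDM3A-sh2 replicate 1 or 3, and TUBA1A fell from 677 ± 7.43 to 522 ± 15.9 FPKM (SD, n = 3).

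Stress and secretory programmes had no common direction. The amino acid response driven by ATF4 had 12 lower and 7 higher members of 36, with PSAT1 of serine synthesis falling from 126 ± 4.80 to 81.6 ± 2.79 FPKM and PYCR1 of proline synthesis rising from 184 ± 13.1 to 242 ± 10.1 FPKM (SD, n = 3 each). Endoplasmic reticulum chaperones had 11 lower genes (6 on leaving out KDM3A-sh2 replicate 1) and 4 higher ones (2 on leaving out KDM3A-sh2 replicate 1 or 2) of 41. CANX (calnexin), a lectin chaperone, was at 346, 378 and 336 FPKM with Scramble and at 172, 192 and 189 FPKM with KDM3A-sh2 (-0.93 on the log2 scale, SE 0.06, adjusted p = 0.000205). Among cytosolic heat shock proteins 6 were higher and 9 were lower of 33, the latter 3 on leaving out Scramble replicate 1 or 3 or KDM3A-sh2 replicate 1 or 3 and 5 on leaving out KDM3A-sh2 replicate 2, and HSPB7, a muscle small heat shock protein, rose from 72.0 ± 7.75 to 131 ± 10.1 FPKM (SD, n = 3). In the inflammatory list 8 of 16 genes were lower and 3 were higher. IL6ST (gp130), the shared receptor of the IL-6 family, its ligand IL11 and the feedback inhibitor SOCS3 all fell, with changes of -0.78, -0.91 and -0.75 on the log2 scale. NNMT, a methyltransferase that consumes S-adenosylmethionine and nicotinamide, was at 296, 292 and 298 FPKM against 144, 138 and 131 FPKM (log2 fold change -1.10), and the NAD list around it had 6 higher and 2 lower genes of 19, the latter 1 on leaving out Scramble replicate 1 or KDM3A-sh2 replicate 1. The sodium pump list, which includes NKAIN4, had 4 lower and 2 higher genes of 9.

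Developmental pathways were likewise mixed. The Notch list had 8 lower and 5 higher genes of 24, the latter 3 on leaving out Scramble replicate 2 or 3 or KDM3A-sh2 replicate 1 or 3. The Wnt list had 8 lower and 8 higher genes of 42, with SFRP4, a secreted inhibitor, falling from 29.3 ± 2.54 to 12.9 ± 1.35 FPKM (SD, n = 3). The Hedgehog list had 4 lower genes (2 on leaving out Scramble replicate 1 or 2 or KDM3A-sh2 replicate 1) and 3 higher ones of 15. HHAT, the acyltransferase that makes Hedgehog ligands active, was at 19.2, 19.3 and 20.8 FPKM with Scramble and at 6.83, 6.28 and 6.80 FPKM with KDM3A-sh2, a log2 fold change of -1.44. HOX genes had 6 higher and 3 lower members of 27, and the latter count was 1 on leaving out Scramble replicate 1 or 2 or KDM3A-sh2 replicate 1 or 2 or 3. Of 13 factors of epithelial-mesenchymal transition, 5 were higher (3 on leaving out Scramble replicate 1 or 2 or KDM3A-sh2 replicate 1 or 2 or 3) and 3 were lower, with SNAI1 rising from 83.7 ± 4.14 to 128 ± 0.271 FPKM and ZEB1 falling from 60.6 ± 0.328 to 45.1 ± 3.04 FPKM (SD, n = 3 each). Axon guidance molecules had 11 lower genes of 32 (6 on leaving out Scramble replicate 1 or 2 or KDM3A-sh2 replicate 1 and 7 on leaving out Scramble replicate 3 or KDM3A-sh2 replicate 2) and 2 higher ones (1 on leaving out Scramble replicate 1 or 2 or 3 or KDM3A-sh2 replicate 1 or 3). Neuronal and synaptic genes had 4 higher and 6 lower members of 17. Of the imprinted genes, 5 were lower and 3 were higher of 14, with MEST falling from 1363 ± 45.3 to 794 ± 15.2 FPKM and PEG10, a retrotransposon-derived gene, rising from 487 ± 28.7 to 793 ± 12.4 FPKM (SD, n = 3 each).

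The histone demethylases, the family of the depleted gene, were called about as often as all tested genes. Their shares were 16% higher and 16% lower, against 15.3% and 13.2%. Of 25 tested JmjC demethylases and LSD1 genes, 4 were lower, KDM3A included, and 4 were higher, the latter 2 on leaving out Scramble replicate 1 or 3 or KDM3A-sh2 replicate 2 or 3. KDM1A (LSD1) fell from 183 ± 6.08 to 151 ± 6.06 FPKM and PHF2, another H3K9 demethylase, from 30.3 ± 1.88 to 23.0 ± 0.0575 FPKM (SD, n = 3 each). Of 12 H3K9 methyltransferases and HP1 proteins, 1 was lower and 1 was higher, CBX1 (HP1 beta) falling by 0.28 and SETDB2 rising by 0.52 on the log2 scale. High mobility group genes had 2 higher and 2 lower members of 10. HMGA2, an architectural protein of embryonic cells, was at 63.5, 60.8 and 63.3 FPKM with Scramble and at 38.0, 36.5 and 36.6 FPKM with KDM3A-sh2.

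The other lists were counted in the same way. With median-ratio scaling the lysosome list had 8 higher and 8 lower genes and the mitochondrially encoded list 0 higher and 2 lower. Aminoacyl-tRNA synthetases had 5 lower genes (2 on leaving out Scramble replicate 1 or KDM3A-sh2 replicate 1, 3 on leaving out KDM3A-sh2 replicate 2 and 1 on leaving out KDM3A-sh2 replicate 3) and 1 higher of 20. Proteasome subunits had 8 lower genes (5 on leaving out KDM3A-sh2 replicate 2) and 2 higher (0 on leaving out Scramble replicate 1 or KDM3A-sh2 replicate 1 or 2 and 1 on leaving out Scramble replicate 3) of 40. Interferon-stimulated and antigen presentation genes had 8 lower (3 on leaving out Scramble replicate 1 or 3, 5 on leaving out Scramble replicate 2 or KDM3A-sh2 replicate 1 or 3 and 4 on leaving out KDM3A-sh2 replicate 2) and 4 higher of 22. Lysosome and autophagy genes had 10 higher (4 on leaving out KDM3A-sh2 replicate 1 and 6 on leaving out KDM3A-sh2 replicate 3) and 7 lower of 49, or 20.4% and 14.3%. S100 proteins and annexins had 6 lower and 1 higher (2 on leaving out KDM3A-sh2 replicate 1 or 3) of 16. The dynein and HSD17B10 partner list had 3 higher and 3 lower (1 on leaving out KDM3A-sh2 replicate 1 or 2) of 12. The mitochondrially encoded genes had 3 higher (0 on leaving out Scramble replicate 1 or 3 or KDM3A-sh2 replicate 1 or 2) and 2 lower of 13. The MAX network had 4 higher (2 on leaving out Scramble replicate 2 or KDM3A-sh2 replicate 2 or 3) and 0 lower (1 without Scramble replicate 3) of 12. Metallothioneins had 2 lower (1 on leaving out Scramble replicate 1 or 3 or KDM3A-sh2 replicate 1 or 2 or 3) and 1 higher (0 on leaving out Scramble replicate 2 or KDM3A-sh2 replicate 2 or 3) of 4. All 34 genes that the study picked on these libraries as shared with Ewing sarcoma cells were lower, which is no independent evidence of their direction.

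Long noncoding RNAs had more rises than drops. Of 578 tested lincRNAs, 147 (25.4%) were higher and 19 (3.29%) lower, and of 622 antisense RNAs, 131 (21.1%) were higher and 18 (2.89%) lower. Protein-coding genes had 2119 higher (17.5%) and 1948 lower (16.1%) of 12085. The medians were 0.26 for lincRNAs, 0.23 for antisense RNAs and 0.03 for protein-coding genes. With every library scaled to the same sum, 141 lincRNAs were higher and 20 lower. The count of higher lincRNAs was 91 without replicate 1 of KDM3A-sh2 and 96 without its replicate 2, and that of higher antisense RNAs was 77 and 86 in the same fits. These RNAs were scarce, with a median of 2.69 FPKM for lincRNAs and 24.5 FPKM for protein-coding genes. Some may have reached the filter through KDM3A-sh2 alone, which was not counted by class. The KDM3A-sh2 libraries also had more genes at or above 1 FPKM, 17710 to 17771 against 17473 to 17591 with Scramble, and its part in the result was not tested. Of the 131 higher antisense RNAs, 100 overlap a tested protein-coding gene on the other strand, which was higher for 25 and lower for 19 of them.

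The 3′ UTRs of the genes that fell held one 7-base word more often than those of other genes. The sequence of the KDM3A shRNA was not used here, and its part in the result was not tested. The word TGAAGCA, chosen with earlier results of these data known, was counted in the longest annotated 3′ UTR (GENCODE 29) of 11889 tested genes with at least 50 bases of it, and 16.9% of all held it. Among the 1933 lower genes 29.3% held it, among 7870 genes not called 15.3%, and among 2086 higher genes 11.1%. The UTRs also differed in length, with medians of 1792, 1376 and 1152 bases. Among UTRs of 1000 to 2000 bases the shares were 23.9%, 10.9% and 8.69%. The 2006 genes with the word had a median change of -0.07 on the log2 scale, against 0.04 in the 9883 without it. The word GTCGCCC was counted in the same way and was held by 7.14% of higher, 3.16% of lower and 4.69% of all genes.

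OSTM1 and CANX, which had log2 fold changes of -1.95 and -0.93, each held the word 3 times, and the sites are printed because no other named gene held more than 2. The OSTM1 sites start at bases 1543, 1567 and 2121 of a 3376-base UTR (chr6:108043225-108043253, chr6:108043201-108043229 and chr6:108042647-108042675, minus strand). The CANX sites start at bases 249, 1217 and 1837 of a 2281-base UTR (chr5:179728882-179728910, chr5:179729850-179729878 and chr5:179730470-179730498, plus strand). Capitals mark the word.
OSTM1 site 1: ctgtcttgattTGAAGCAtatgattgaga
OSTM1 site 2: tgagagccattTGAAGCAatcttcattaa
OSTM1 site 3: ctttgggaggcTGAAGCAgatcgctggag
CANX site 1: gaaatgtaacaTGAAGCAaactaactttt
CANX site 2: gaggagtgacaTGAAGCAtgagttatctg
CANX site 3: aggtttctcctTGAAGCAaatgtgtggga
Of the other largest drops, ANKRD1 and CYR61 also held the word. NKAIN4, ITGA3, TNNC1, GADD45B and TPM1 held no match in their longest annotated 3′ UTR. Among the largest rises, UGT3A1 held 2 and DIO2 also held the word. In the actin list 4 of 26 lower genes held the word, in the YAP/TEAD list 4 of 12 and in the cholesterol list 2 of 16. In the sarcomere list 2 of 14 held it, in the MAPK list 8 of 23, in the mitosis list 7 of 20 and in the TGF-beta list 6 of 13. Of the 34 genes that the study shared with Ewing sarcoma cells, all lower, 13 held it, ETS1 and MCAM included. These lists thus lay on both sides of the 29.3% of all lower genes, and they were not matched for UTR length.

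**Figure D4:**
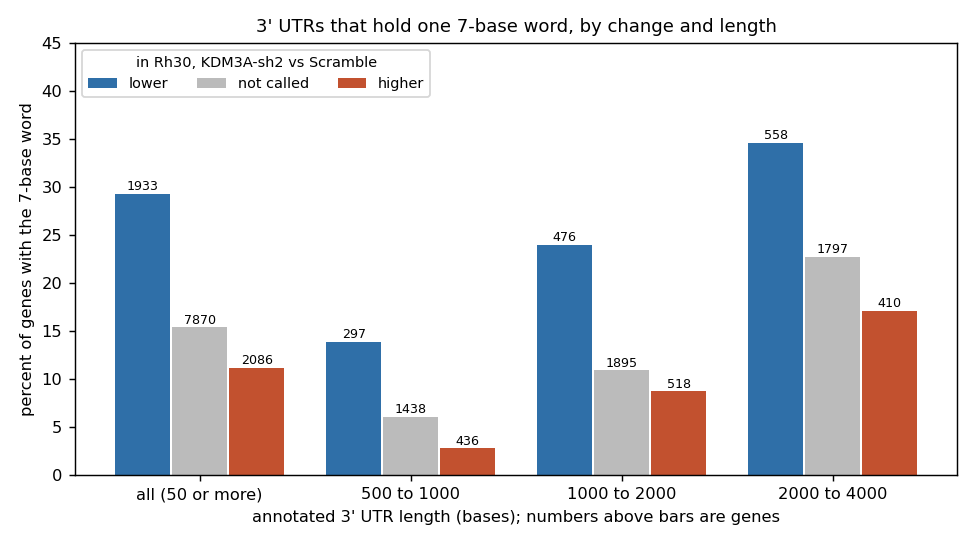
Percent of genes whose longest annotated 3′ UTR holds the 7-base word, for genes lower (blue), not called (grey) and higher (red) with KDM3A-sh2 in Rh30 cells, over all UTRs and within 3 length ranges, with the number of genes above each bar. The lower genes have the tallest bar in every length range, from 13.8% at 500 to 1000 bases to 34.6% at 2000 to 4000 bases.

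Whether these changes differed from those in RD cells was tested with the interaction of line and shRNA in a limma fit over all 12 libraries. Of 18532 tested genes, 2493 (13.5%) had a lower change in Rh30 than in RD and 2669 (14.4%) a higher one. In the YAP/TEAD list 14 of 24 genes changed lower in Rh30 and none higher. CYR61 had a log2 fold change of -1.76 in Rh30 and 0.08 in RD (difference -1.84, adjusted p = 1.35e-08), and ANKRD1 one of -1.93 and -0.02 (difference -1.91, adjusted p = 2.01e-07). In the actin list 24 of 47 genes changed lower in Rh30 and 3 higher, and TAGLN, which fell in Rh30, rose in RD by 0.89 (difference -2.37, adjusted p = 8.73e-08). In the MAPK list 18 of 41 genes changed lower in Rh30 and 6 higher, with SPRY4 and ETV4 lower in Rh30 and higher in RD.

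Growth-related lists differed in the other direction. In the mitosis list 54 of 60 genes had a higher change in Rh30 than in RD and none a lower one, with list medians of -0.12 in Rh30 and -0.89 in RD. In the replication list 39 of 55 genes had a higher change in Rh30 and none a lower one, with medians of -0.01 in Rh30 and -0.39 in RD. For cytosolic ribosomal proteins 68 of 79 had a higher change in Rh30 and none a lower one, and in RD 53 were lower and 1 was higher. RPLP0 had log2 fold changes of 0.41 in Rh30 and -0.11 in RD (difference 0.52, adjusted p = 2.22e-05). Of the aminoacyl-tRNA synthetases 13 of 20, and of the ATF4 list 27 of 38, had a lower change in Rh30 than in RD, where 14 and 27 members of these lists were higher. In the cholesterol list 6 of 29 genes had a lower and 4 a higher change in Rh30. Each line, fitted on its own, had 16 lower genes, and how many were the same genes was not counted. The difference for HMGCS1 was 0.15 (adjusted p = 0.252) and did not pass. DIO2 and NEB had no called difference either, with values of 0.20 (adjusted p = 0.714) and -0.04 (adjusted p = 0.659).

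**Figure D5:**
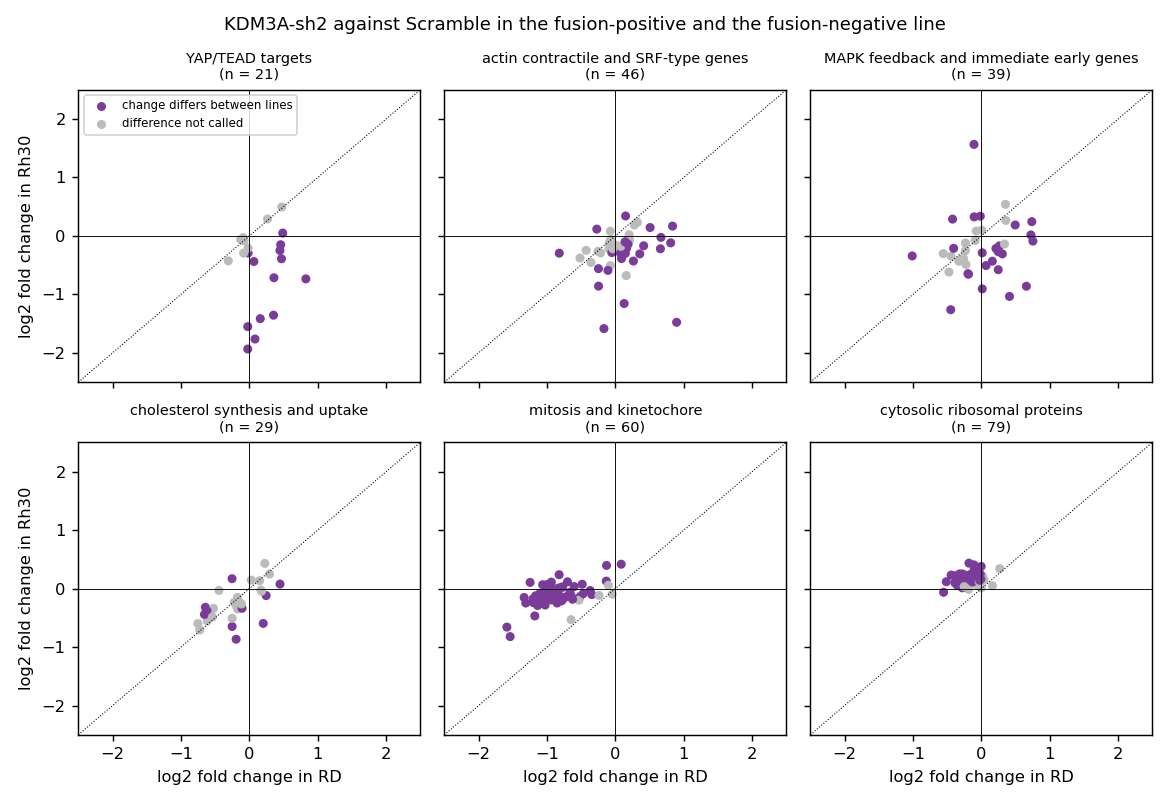
Log2 fold change with KDM3A-sh2 in RD cells (x) and in Rh30 cells (y) for the members of 6 lists that were tested in both lines, purple where the change differed between lines at an adjusted p under 0.05, with a dotted line where both are equal. Purple points of the YAP/TEAD list lie below the dotted line, as do most of the actin list, and those of the mitosis and ribosomal protein lists lie above it.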

How the data were processed

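Polyadenylated RNA of Rh30 and RD cells was sequenced from 3 libraries per line and shRNA. The authors aligned single-end reads to GRCh38 with GSNAP, used SAMtools, and computed the deposited FPKM values with Cufflinks. The Cufflinks version, the annotation release and the use of strand are not given in the sources used here. The read length differs between the Methods and the labels. FPKM depends on the sum of all other transcripts, so the balance of rises and drops moves with the scaling.

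Values of 999999999 were treated as missing, which affected 10 genes and 20 values of the Rh30 libraries. A gene with a missing value was fitted on its other libraries. Of entries with the same identifier, the one with the highest mean was kept (117 identifiers). Symbols that a spreadsheet had turned into dates (31) were restored from the identifiers. Genes that averaged 1 FPKM or more were tested on log2(FPKM + 1) with limma 3.58.1 in R 4.3.3 (moderated test with trend), two-sided, with Benjamini-Hochberg adjustment and a threshold of 0.05. A fold change on this scale understates that of low genes. The study itself used ANOVA, which was run as an alternative. With 3 libraries a group an exact permutation test cannot go below p = 0.1. The fit was tested on simulated data. Other alternatives were another pseudocount, other filters and scalings, a replicate block, and leaving out each library.

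The 55 gene lists (1919 entries, 1918 matched) and the members named were chosen with earlier results of these data known. Genes were named if they were among the 10 largest called rises or drops that averaged 5 FPKM or more in non-overlapping groups (pseudogenes left out), among the 4 largest called changes of a list in each direction at that level, in a list of few genes, or defining members of a list. ACTG1, CNN2, FLNA, DUSP2, SRF, PAX3, FOXO1, LAPTM5 and the troponins were named after their values were seen, and so were the lincRNA and antisense classes. Promoter windows were RefSeq sequences (GRCh38.p14) and UTRs and gene types came from GENCODE 29, which held 86.3% of the identifiers. Python 3.11.15 made the summaries. Some results are not reported here.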

Additional observations from a re-analysis of the deposited data

Results flagged for a closer look

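The 2 lines differed in their change for 214 of the 345 called genes named by the rule, by the interaction term of limma with adjustment over 18532 genes. The differences below are on the log2 scale, negative where the change was lower in Rh30, with 3 libraries per group, and no explanation was tested. Among the 10 largest drops in Rh30, the difference was -1.42 for NKAIN4, -1.69 for ITGA3, -0.96 for TNNC1, -1.83 for GADD45B and -0.55 for OSTM1. It was -1.91 for ANKRD1, -1.88 for NPPB, -1.84 for CYR61, -1.32 for MYLPF and -1.42 for TPM1. Among the largest rises it was 1.5 for DRD2, 1.64 for MGP, 1.45 for UGT3A1, 0.66 for IL21R, 1.44 for RP11-332K15.1, 0.83 for MACROD1 and 1.27 for CD7. DYNLRB1 (-0.29) and SNX15 (-0.27) rose more in RD. NPPB, DRD2, MGP, UGT3A1, RP11-332K15.1 and CD7 averaged under 1 FPKM in RD and were not tested there. Their differences therefore mostly restate the change in Rh30, and a response in RD could hardly be seen.

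Among the genes named by the rule, those called in opposite directions with a difference of at least 1 mostly fell in Rh30 and rose in RD. The named genes came from lists chosen with earlier results known, so this direction does not describe all genes. Over all 18532 tested genes, 13.5% had a lower change in Rh30 than in RD and 14.4% a higher one. Adhesion, matrix and contractile genes of this kind were TAGLN (-2.37), COL1A1 (-2.25), PLAT (-1.62), CTGF (-1.57), CDH2 (-1.07) and the acetylcholine receptor subunits CHRND (-1.20) and CHRNA1 (-1.06). Ligands and signalling genes were GDF15 (-2.80), HBEGF (-2.06), INHBE (-1.73), TGFB2 (-1.56), SPRY4 (-1.52), ETV4 (-1.45), WNT11 (-1.45), MSTN (-1.19), CCL2 (-1.19), DKK3 (-1.08) and IL11 (-1.08). BHLHE40 (-1.55), S100A10 (-1.37), ANXA1 (-1.19) and S100A2 (-1.12) went the same way. GLI2 (1.08), SNAI1 (1.17), GADD45G (1.10), CDT1 (1.44) and KIF2C (1.06) rose in Rh30 and fell in RD.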

How the results depend on the processing

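The 2721 higher and 2348 lower genes became 582 and 538 with a 1.5-fold change as well. Leaving out 1 library gave 1622 to 2128 higher and 1594 to 1945 lower genes, and 4405 to 4761 genes whose change differed between lines, against 5162. Scaling to the same sum gave 2316 higher and 2607 lower, and median-ratio scaling 2298 and 2697, so that lower genes became the majority, and the cause was not tested. The counts were 1899 and 1761 by ANOVA on unlogged FPKM, 2132 and 1964 without a filter on low values, and 2718 and 2347 with a pseudocount of 0.1. With a replicate block they were 1799 and 1623. The replicate numbers did not pair the libraries: same-numbered Scramble and KDM3A-sh2 libraries had correlations of deviations of -0.028, -0.057 and -0.043, and no library correlated best with its own number. Of 360 named genes 345 were called, 265 of them in every alternative run, 281 in every fit without 1 library and 334 with the same sum per library. Depth is not known from FPKM, so counting error for low genes could not be separated from other spread.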
